A study of Mus musculus with 24 samples.

Results

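8 genes, Angptl2, Cadm1, Tm4sf19, Kif5c, Fabp7, Crip1, Ppp1ca and AI427809, were followed across macrophages and T cells of mice with induced loss of the TET enzymes or of TDG. They were picked, from the 23420 gene symbols counted, because their RNA was lower in TET triple knockout macrophages than in wild-type (WT) macrophages. The TET contrast is therefore what chose them, and its values are given below as a description with no test. What the choice did not use is the second mouse cohort, in which Tdg was deleted, the response of that cohort to stimulation, and the T cells. Genes picked this way must be expressed in macrophages, though, so a lower level in T cells is favoured by the choice.

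RNA was sequenced from bone marrow-derived macrophages (BMDMs), grown from marrow in medium with M-CSF, and from Th2 cells, which are CD4+ T cells polarised with IL-4. All mice were C57BL/6 and 8 to 16 weeks old, and tamoxifen was injected into Cre-expressing and control mice alike. TET iTKO BMDMs came from mice homozygous for floxed (fl/fl) Tet1, Tet2 and Tet3, with tamoxifen-inducible CreERT2 and the Rosa26-YFP LSL reporter, and TDG iKO cells came from Tdg fl/fl mice with the same Cre and the Rosa26-H2B-EGFP/GPI-mCherry LSL reporter. Each knockout had its own WT group, called here the Tet-cohort WT and the Tdg-cohort WT, and whether those WT mice carried floxed alleles is not given in the sources used here. The Cre transgene lies at the Ndor1 locus and acts in all tissues, and the BMDMs were not described as sorted for the reporter, so cells that escaped deletion may be among them. BMDMs were left without stimulus (0 h) or given Kdo2-lipid A (KLA), a pure agonist of the endotoxin receptor TLR4, for 6 h. There were 8 BMDM groups of 2 libraries and 2 Th2 groups (TDG iKO and WT) of 4 libraries, 24 libraries in all, and TET iTKO Th2 cells were not analysed here. Replicates are numbered in the labels but not tied to separate animals, so p-values measure only the spread between these libraries, which may be technical.

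TET enzymes oxidise 5-methylcytosine in DNA to 5-hydroxymethylcytosine and on to 5-formylcytosine and 5-carboxylcytosine, and TDG is the glycosylase that cuts out the last pair of these bases so that repair can restore plain cytosine. Both therefore belong to the pathway of DNA demethylation, with TET acting before TDG. Macrophages stimulated through TLR4 stop dividing and switch on inflammatory genes within hours, which makes them a setting in which demethylation can be followed without DNA replication.

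The members have unrelated functions. Angptl2 encodes a secreted angiopoietin-like glycoprotein, Cadm1 an immunoglobulin-type cell adhesion molecule, and Tm4sf19 a small membrane protein of the L6 tetraspan family. Kif5c encodes a heavy chain of kinesin-1, the motor that carries cargo along microtubules, and Fabp7 the brain-type fatty acid binding protein, a carrier of fatty acids inside cells. Crip1 encodes a short LIM-domain protein, and Ppp1ca the alpha catalytic subunit of protein phosphatase 1. AI427809 is a long non-coding RNA, listed by RefSeq under the symbol Mexis, that lies near Abca1, the gene of a cholesterol efflux transporter.

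They also lie on different chromosomes for the most part (mm9 coordinates). Angptl2 (chr2:33071589-33103237) and Kif5c (chr2:49474818-49630298) share chromosome 2. Cadm1 (chr9:47338256-47665720), Tm4sf19 (chr16:32400592-32408313), Fabp7 (chr10:57504687-57508256), Crip1 (chr12:114390223-114392088) and Ppp1ca (chr19:4192158-4195419) lie on the plus strand like those 2, and AI427809 (chr4:53274765-53283104) on the minus strand. The proximal promoters of 6 members, 300 bases around the start in RefSeq (GRCm38.p6), most of them upstream, were each found once in mm9 by exact match. The DNA substrate of the TET enzymes is the methylated CpG, so 4 promoters are shown with each CpG in capitals. They are those of the coding members with the most CpGs, Crip1 and Kif5c, and with the fewest, Fabp7 and Tm4sf19.
Crip1 (chr12:114389973-114390272, plus strand): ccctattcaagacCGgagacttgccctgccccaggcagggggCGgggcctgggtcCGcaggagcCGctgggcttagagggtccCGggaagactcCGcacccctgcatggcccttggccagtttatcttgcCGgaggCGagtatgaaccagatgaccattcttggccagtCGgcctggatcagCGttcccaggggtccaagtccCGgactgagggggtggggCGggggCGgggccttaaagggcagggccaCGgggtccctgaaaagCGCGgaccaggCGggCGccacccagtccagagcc
Kif5c (chr2:49474556-49474855, plus strand): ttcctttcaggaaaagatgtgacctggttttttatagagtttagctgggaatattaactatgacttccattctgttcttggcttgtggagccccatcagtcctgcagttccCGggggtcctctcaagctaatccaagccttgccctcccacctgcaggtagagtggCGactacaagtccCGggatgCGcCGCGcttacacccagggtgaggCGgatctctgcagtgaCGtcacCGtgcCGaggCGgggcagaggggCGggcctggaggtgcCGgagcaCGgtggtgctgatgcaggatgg
Fabp7 (chr10:57504479-57504778, plus strand): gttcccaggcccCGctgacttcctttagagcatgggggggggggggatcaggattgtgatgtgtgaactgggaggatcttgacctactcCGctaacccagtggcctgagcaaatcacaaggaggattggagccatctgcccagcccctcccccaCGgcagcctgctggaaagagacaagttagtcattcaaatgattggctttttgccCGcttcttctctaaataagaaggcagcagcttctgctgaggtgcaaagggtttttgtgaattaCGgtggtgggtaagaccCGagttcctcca
Tm4sf19 (chr16:32400342-32400641, plus strand): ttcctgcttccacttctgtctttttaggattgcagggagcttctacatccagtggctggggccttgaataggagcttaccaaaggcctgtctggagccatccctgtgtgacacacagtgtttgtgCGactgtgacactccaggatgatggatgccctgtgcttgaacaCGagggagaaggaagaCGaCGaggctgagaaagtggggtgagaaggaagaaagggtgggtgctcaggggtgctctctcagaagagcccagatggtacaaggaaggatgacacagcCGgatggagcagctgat

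The promoters had no common CpG content. Crip1 held 18 CpGs in its 300 bases, Kif5c 14, Angptl2 9, Fabp7 6 and Tm4sf19 5, and the 2 annotated starts of AI427809 had 6 and 3. The median over 32851 mouse promoters of that length was 7, with quartiles of 3 and 20, and all 7 windows lay at or between those quartiles. The TATA-type sequence TATAAA, searched at any position on both strands, was found in the window of Kif5c alone among the 6, and 13.6% of all promoters held it. In Kif5c it lay on the minus strand, printed as tttata near the upstream end of the window. Its distance to the start was not part of the search, so it is not shown to be a TATA box. The macrophage-type motif GAGGAA, the core to which PU.1-like factors bind, was found in the windows of Fabp7 and of both AI427809 starts, and 28.3% of all promoters held it. The motifs searched do not contain one another. None of the 7 windows held the AP-1 type TGANTCA (7.81% of all promoters) or the E-box CACGTG (7.15%). No methylation was measured in these RNA libraries.

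Assigned counts ranged from 4982950 to 26657729 per library, the lowest being replicate 2 of the Tdg-cohort WT at 0 h. Levels are given as normalised counts, the gene's count divided by a DESeq2 size factor set over all 24 libraries, and differences as the log2 fold change of the DESeq2 fit with its standard error (SE). All 11 macrophage markers in the files were detected in every BMDM group. In Th2 cells 8 of 8 T cell markers were detected. Of the 11 macrophage markers, 8 were detected in WT Th2 and 7 in TDG iKO Th2. Their summed normalised counts were 209 to 642 and 116 to 582, beside 338535 or more in BMDM libraries. The macrophage receptors Csf1r and Mertk were at 0 in both Th2 groups. Gene counts did not check the deletions: Tdg had 0 to 7 counts in every library, WT included, and Tet2 and Tet3 were not lower in TET iTKO. Replicate 1 of the Tet-cohort WT had 0 counts of Xist, the RNA of the inactive X chromosome, at both times, TDG iKO Th2 replicate 1 had 16, and every other library had 2097 or more. Without that WT replicate the 7 members that could be compared had log2 fold changes of −0.80 to −2.32 at 0 h and of −0.91 to −2.59 at 6 h. Th2 replicates 3 and 4 differed from each other by little more than sampling noise in either genotype and were summed, giving n = 3.

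At 0 h all 8 members were lower in both TET iTKO libraries than in both WT libraries, and at 6 h 7 of 8 were. This is what the choice of members fixes, and it is read only as a description: 26.3% of the 12200 genes tested at 0 h and 23.3% of the 11634 tested at 6 h had non-overlapping lower groups. Of all genes, 7.5% were called at 0 h by DESeq2 at an adjusted p under 0.05 (3.12% lower) and 6.58% at 6 h (3.34% lower). The median log2 fold change of the 7 members other than Ppp1ca was −1.66 at 0 h and −1.80 at 6 h, beside 0.01 and −0.00 over all genes. Among lowered genes averaging 50 or more normalised counts, Angptl2, Cadm1 and Tm4sf19 had the largest decreases at 0 h, followed just outside by Sulf2 (−1.86 ± 0.36 SE). Kif5c, Crip1 and Fabp7 had the largest decreases at 6 h, followed by Rnf144b (−1.91 ± 0.50 SE), with Cadm1 and AI427809 in places 5 and 6.

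**Figure D1:**
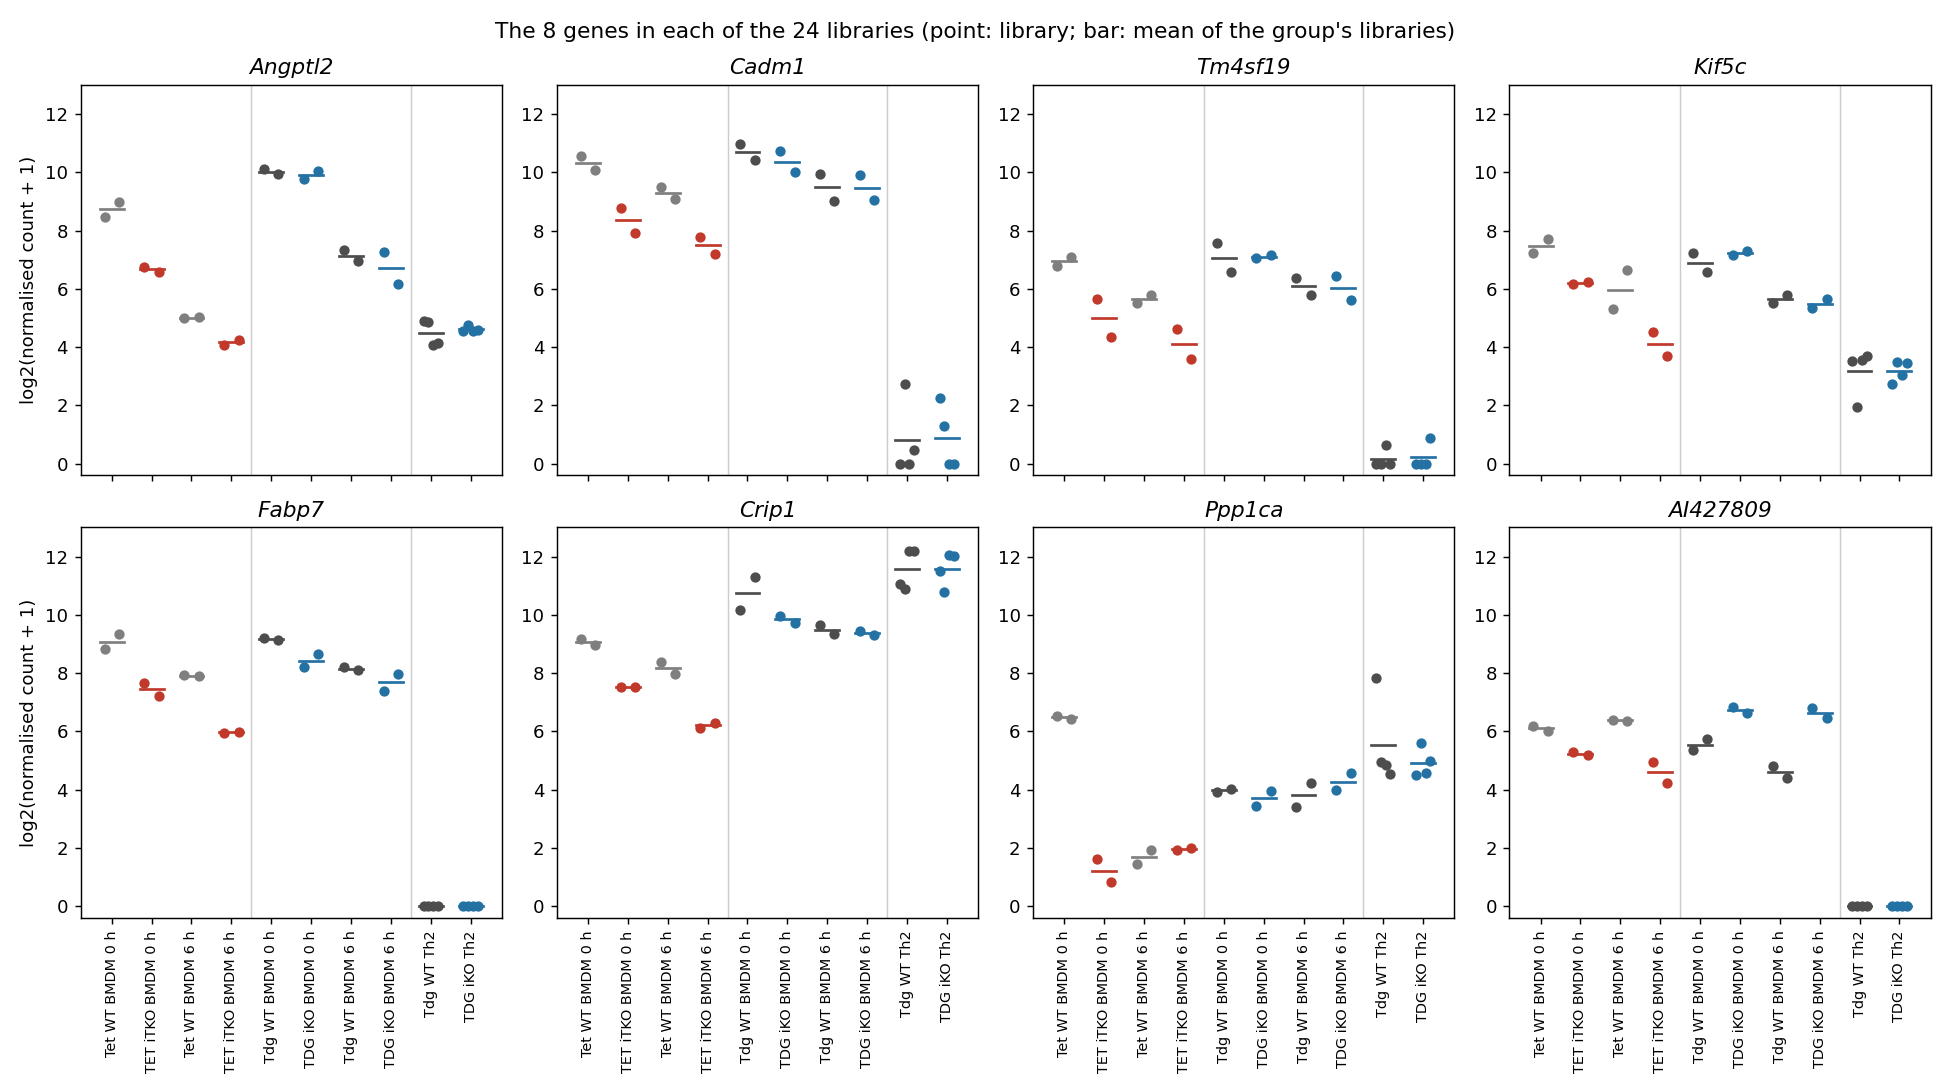
Level of each of the 8 genes in every library, as log2(normalised count + 1) on the vertical axis, with 1 panel a gene and the 10 groups along the horizontal axis. Each point is a library and each bar the mean of the log2 values of the group. 7 genes sit lower in TET iTKO than in the WT of the same cohort at both times, Ppp1ca only at 0 h, while AI427809 sits higher in TDG iKO than in its WT.

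Of the secreted and surface proteins, Angptl2 had normalised counts of 356 and 501 in the Tet-cohort WT at 0 h and of 107 and 94.5 in TET iTKO. After 6 h of KLA it stood at 30.6 and 31.6 in WT and at 15.99 and 17.8 in TET iTKO. The genotypes were thus apart at both times, and the gap was narrower at the later time, going from a log2 fold change of −2.10 ± 0.27 (SE, n = 2 per group), or 4.27-fold lower, at 0 h to −0.88 ± 0.38 at 6 h. In the Tdg cohort the levels at 0 h were higher than in the Tet cohort, at 1095 and 989.8 in WT and 869 and 1043 in TDG iKO. At 6 h they were 160.3 and 122 in WT and 151 and 71.0 in TDG iKO, and the genotypes overlapped at both times. The TDG log2 fold change was −0.13 ± 0.39 at 0 h, with a 95% Wald interval of −0.89 to 0.63, and −0.35 ± 0.41 at 6 h, with an interval of −1.16 to 0.46.

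Cadm1 was the most abundant of the surface genes per kilobase. Its normalised counts at 0 h were 1526 and 1086 in the Tet-cohort WT and 442 and 243 in TET iTKO. At 6 h they were 727 and 543 in WT and 219 and 147 in TET iTKO. Both times gave a similar difference, of −1.93 ± 0.42 and −1.80 ± 0.43 on the log2 scale. Tdg-cohort WT libraries at 0 h had 1993 and 1367 and the TDG iKO libraries 1689.7 and 1033. The 6 h values were 992 and 522 in WT and 953 and 525 in TDG iKO. Within this cohort the replicate number separated the libraries more than the genotype did, with replicate 1 above replicate 2 in all 4 groups. The TDG log2 fold change was −0.31 ± 0.45 at 0 h (interval −1.20 to 0.58) and −0.03 ± 0.46 at 6 h (interval −0.92 to 0.86).

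Tm4sf19 was a lower-count gene, with 109.6 and 137 normalised counts in the Tet-cohort WT and 49.2 and 19.2 in TET iTKO at 0 h. The WT libraries at 6 h had 44.6 and 54.0 and the TET iTKO libraries 23.5 and 11.1. The TET iTKO replicates differed from each other by more than 2-fold at either time, and the difference from WT was −1.87 ± 0.47 at 0 h and −1.53 ± 0.50 at 6 h. These values rested on single TET iTKO libraries: without replicate 1 they were −2.69 and −2.16, and without replicate 2 the 0 h value was −1.32. The Tdg-cohort WT libraries had 188 and 94.4 at 0 h, on either side of the TDG iKO libraries at 131 and 142. WT libraries at 6 h had 81.8 and 54.5 and the TDG iKO libraries 86.3 and 48.4. The TDG log2 fold change was −0.07 ± 0.52 at 0 h (interval −1.09 to 0.94) and −0.02 ± 0.54 at 6 h (interval −1.07 to 1.03).

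Of the genes for intracellular proteins, the kinesin gene Kif5c had 149 and 207 normalised counts in the Tet-cohort WT at 0 h and 70.7 and 74.5 in TET iTKO. At 6 h it had 38.5 and 98.6 in WT and 21.6 and 11.9 in TET iTKO. The 6 h difference of −2.06 ± 0.46 was larger than that at 0 h, −1.30 ± 0.41, but rested on WT replicate 2: without it the 6 h value was −1.22, and without WT replicate 1 it was −2.59. The Tdg-cohort WT had 147 and 94.4 at 0 h and TDG iKO 142 and 157. Values at 6 h were 44.9 and 54.5 in WT and 39.1 and 49.4 in TDG iKO. The genotypes overlapped at both times, with TDG log2 fold changes of 0.28 ± 0.45 (interval −0.61 to 1.17) and −0.16 ± 0.49 (interval −1.12 to 0.79).

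Fabp7 had 453 and 642 normalised counts in the Tet-cohort WT at 0 h, against 202 and 147 in TET iTKO. At 6 h the replicates lay close together, at 241 and 239 in WT and 61.1 and 61.7 in TET iTKO. The log2 fold change was −1.66 ± 0.23 at 0 h and −1.97 ± 0.25 at 6 h, 3.16-fold and 3.93-fold lower. Fabp7 was also the only member whose TDG iKO libraries lay below the WT libraries at both times. They had 292 and 402.5 at 0 h against 583 and 557, and 168 and 252 at 6 h against 297 and 271. The TDG differences were smaller, −0.72 ± 0.35 (interval −1.41 to −0.03) and −0.43 ± 0.36 (interval −1.12 to 0.27), and neither passed the test across all genes (DESeq2 adjusted p = 1.00 for both).

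Crip1 had 569 and 503 normalised counts in the Tet-cohort WT at 0 h and 182 and 181 in TET iTKO. At 6 h it had 332 and 252 in WT and 68.7 and 77.3 in TET iTKO. Replicates lay close together, and the difference was −1.56 ± 0.21 at 0 h and −2.004 ± 0.23 at 6 h, 2.95-fold and 4.01-fold lower. The Tdg-cohort WT had more, 1159 and 2534 at 0 h, and TDG iKO had 1002 and 839.7. At 6 h the values met, at 795 and 651 in WT and 695 and 634 in TDG iKO. The 0 h TDG difference of −1.01 ± 0.40 (interval −1.80 to −0.22, DESeq2 adjusted p = 1.00) rested on WT replicate 2, the shallowest library, in which 25.8% of reads aligned to more than 1 place against 20.6% to 21.9% in the other 7 BMDM libraries of the cohort. Without WT replicate 1, which leaves that library as the only WT sample, 1177 genes were called in place of 0, Crip1 among them at −1.49 (adjusted p = 0.000233).

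Ppp1ca behaved unlike the other coding members. It had 91.6 and 85.2 normalised counts in the Tet-cohort WT at 0 h, from 102 and 131 raw counts, and 2 and 1 raw counts in TET iTKO. At 6 h the raw counts were 2 and 3 in WT and 3 and 4 in TET iTKO, so the WT level at 0 h stood alone in this cohort. The ratio of WT to TET iTKO at 0 h was 66.7, with a 95% interval of 22.5 to 326 from 233 against 3 counts, and that of WT at 0 h to WT at 6 h was 39.0, with an interval of 16.5 to 121. These intervals cover counting error only. In the Tdg cohort the level was low at both times: 14.1 and 15.2 in WT and 9.86 and 14.5 in TDG iKO at 0 h. At 6 h the values were 9.62 and 17.8 in WT and 14.7 and 22.6 in TDG iKO, overlapping those at 0 h. A catalytic subunit of protein phosphatase 1 is made in nearly all cells, yet its normalised count was at most 22.6 in 14 of the 16 BMDM libraries. Of its exonic length 15.5% overlaps the exons of Rad9 on the other strand, and whether the counting used strand is not given in the sources used here, so its counts are uncertain.

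AI427809, the non-coding RNA, lay below WT in 1 knockout and above WT in the other. It had 71.8 and 63.7 normalised counts in the Tet-cohort WT at 0 h and 37.9 and 35.3 in TET iTKO. At 6 h it had 83.0 and 81.0 in WT and 30.1 and 17.8 in TET iTKO. The difference was −0.89 ± 0.41 at 0 h, the smallest of the 7 members compared, and −1.80 ± 0.42 at 6 h. In the Tdg cohort TDG iKO was the higher genotype, with 113 and 98.3 at 0 h against 39.7 and 51.8 in WT. At 6 h TDG iKO had 109 and 87.4 and WT had 27.3 and 19.9. The TDG log2 fold change was 1.23 ± 0.51 (interval 0.23 to 2.22) at 0 h and 2.07 ± 0.52 (interval 1.05 to 3.10) at 6 h, 2.34-fold and 4.21-fold higher. Neither passed the test across all genes, with DESeq2 adjusted p = 1.00 at 0 h and 0.542 at 6 h and edgeR adjusted p of 0.912 and 1.00. The difference between the TET and TDG effects was not tested, since the members were picked on the TET values.

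Deletion of Tdg thus gave no member a change that passed the test: 0 of 8 were called at 0 h and 0 of 8 at 6 h, as were 0.0% of the 15026 genes tested at either time. At an unadjusted p under 0.05 DESeq2 gave 265 genes at 0 h and 34 at 6 h, and edgeR called 0 at both. At 0 h the groups did not overlap for 3 members, lower for Fabp7 and Crip1 (9.76% of all genes) and higher for AI427809 (10.8%). At 6 h they did not overlap for Fabp7, lower (7.76%), and AI427809, higher (8.22%).

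**Figure D2:**
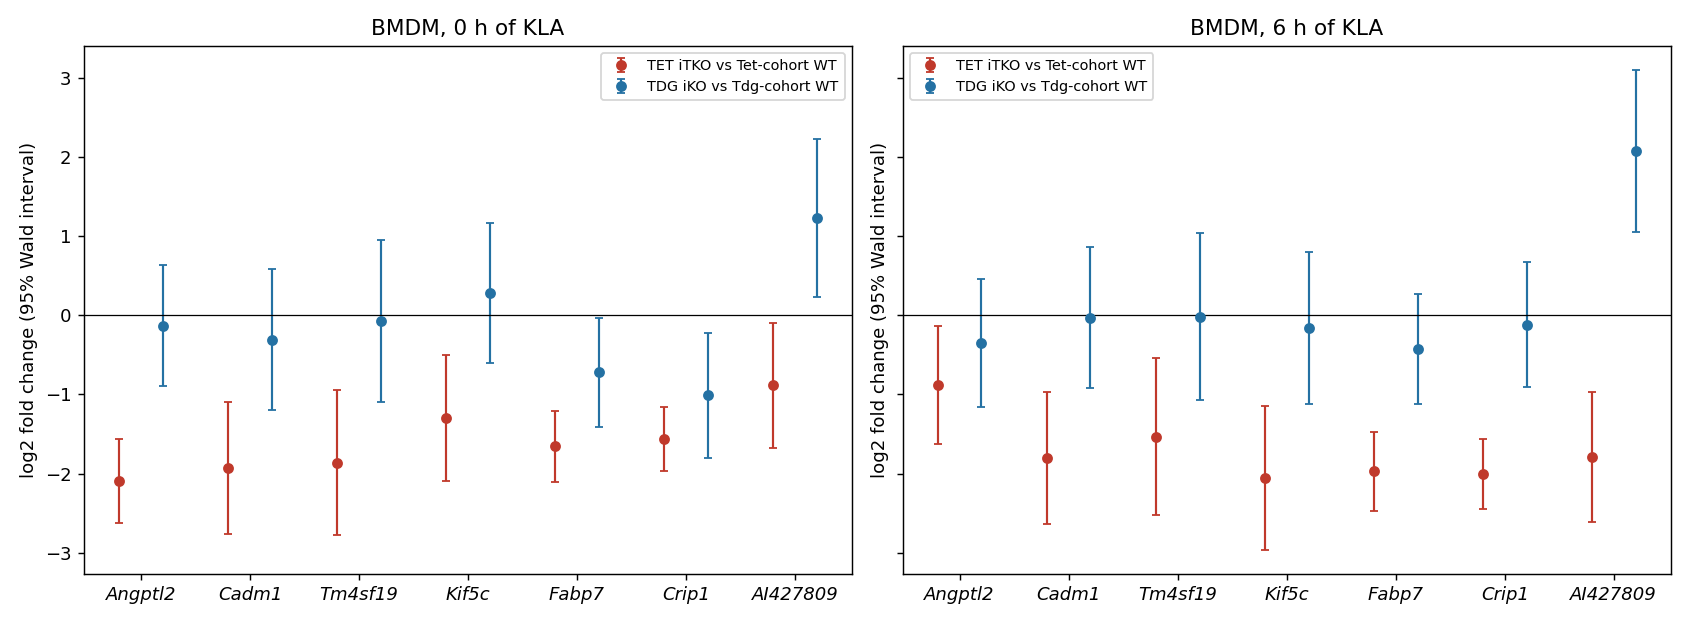
Log2 fold change of knockout against the WT of its own cohort (vertical axis) for 7 genes, at 0 h and 6 h of KLA. TET iTKO and TDG iKO are side by side. Points are DESeq2 estimates and bars 95% Wald intervals (n = 2 libraries a group); Ppp1ca, with 1 to 4 counts in most Tet-cohort libraries, is not drawn. TET values lie between −0.88 and −2.10, and TDG values between −1.01 and 0.28 except AI427809 at 1.23 and 2.07.

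The members were also compared between 0 h and 6 h of KLA. In the Tdg cohort, which did not enter their choice, Angptl2 and Crip1 fell in WT and Angptl2 and Kif5c fell in TDG iKO. In WT this was 2 of 8 members called lower, beside 3.32% of the 11633 genes tested (8.6% in either direction), and in TDG iKO 2 of 8 beside 2.81% (7.08%). Angptl2 fell by 2.89 ± 0.40 on the log2 scale in WT (DESeq2 adjusted p = 7.5e-11, edgeR adjusted p = 0.0123). In TDG iKO it fell by 3.11 ± 0.40 (DESeq2 adjusted p = 2.0e-12, edgeR adjusted p = 0.0105), and it stayed called without any 1 of the 4 libraries of either comparison (−3.73 without TDG iKO 6 h replicate 1). The levels given above show the same thing in single libraries: no WT library at 6 h exceeded 160.3 and none at 0 h was under 989.8.

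The other calls were less stable. Crip1 fell by 1.36 ± 0.40 in WT (DESeq2 adjusted p = 0.0131, edgeR adjusted p = 0.101). Its call was lost without WT 0 h replicate 2 (−0.67, adjusted p = 0.219), without WT 6 h replicate 1 (−1.49, adjusted p = 0.0824) and without WT 6 h replicate 2 (−1.23, adjusted p = 0.326). Kif5c fell by 1.74 ± 0.47 in TDG iKO (DESeq2 adjusted p = 0.00484, edgeR adjusted p = 0.0584), and its call was lost when any 1 of the 4 libraries was left out, with adjusted p of 0.0979 to 0.198. In WT Kif5c stood at −1.29 ± 0.48 (adjusted p = 0.0681) and was called without WT 0 h replicate 2 (−1.54, adjusted p = 0.0354), and Cadm1 at −1.16 ± 0.45 (adjusted p = 0.100) was called without WT 6 h replicate 1 (−1.67, adjusted p = 0.0409). Fabp7 lay at the threshold in WT, at −1.01 ± 0.35 with an adjusted p of 0.05004. These calls also depended on whether the replicate number entered the fit. With that number as a block within genotype, DESeq2 called Cadm1 (adjusted p = 9.3e-05) and Fabp7 (0.0119) in WT and Cadm1 (0.00765) in TDG iKO.

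Tm4sf19 (−1.08 ± 0.53, DESeq2 adjusted p = 0.230), AI427809 (−0.95 ± 0.55, 0.340) and Ppp1ca (−0.06 ± 0.95, 0.981) did not pass in WT. In TDG iKO the uncalled members were Cadm1 (−0.88 ± 0.45), Tm4sf19 (−1.03 ± 0.53), Fabp7 (−0.71 ± 0.35), Crip1 (−0.46 ± 0.40), Ppp1ca (0.63 ± 0.91) and AI427809 (−0.10 ± 0.47), with DESeq2 adjusted p of 0.320 or more. In either genotype most members lay lower at 6 h without overlap, 7 of 8 in WT (23.3% of all genes) and 6 of 8 in TDG iKO (22.5%). The median over the 7 members without Ppp1ca was −1.16 in WT and −0.88 in TDG iKO, beside −0.03 and 0.00 over all genes. Whether the KLA response differed between TDG iKO and WT was tested with an interaction term, and 0 of 8 members passed (adjusted p of 1.00 in DESeq2 for each), as did 0.0% of 15026 genes. At an unadjusted p under 0.05 that test gave 37 genes, and edgeR called 0. Without WT 0 h replicate 1 it called 245 genes, Crip1 among them (1.37, adjusted p = 0.0343).

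In the Tet cohort, where the 0 h and 6 h levels entered the choice of members, the KLA values are a description. In WT 24.1% of 11917 genes were called between the times (11.1% lower) and in TET iTKO 24.4% of 11352 (11.6% lower). Angptl2 had the largest decrease of the 7 members, −3.78 ± 0.31 in WT and −2.56 ± 0.35 in TET iTKO. Kif5c was at −1.37 ± 0.41 and −2.13 ± 0.46, Fabp7 at −1.18 ± 0.23 and −1.50 ± 0.26, and Crip1 at −0.87 ± 0.20 and −1.31 ± 0.23. Cadm1 was at −1.03 ± 0.42 and −0.90 ± 0.43, and Tm4sf19 at −1.31 ± 0.46 and −0.98 ± 0.51, with overlapping TET iTKO libraries for Tm4sf19. The TET iTKO value of Tm4sf19 was −0.16 without 0 h replicate 1 and −1.61 without 6 h replicate 1, and the WT value of Kif5c was −0.84 without 6 h replicate 1 and −2.21 without 6 h replicate 2. AI427809 was the exception, a little higher at 6 h in WT (0.29 ± 0.39) and lower in TET iTKO (−0.62 ± 0.43), without overlap in either. In WT 32.9% of all genes lay lower at 6 h without overlap and 31.0% higher, and in TET iTKO 31.7% and 31.2%. Of all genes, 0.426% were called for a different KLA response in TET iTKO.

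**Figure D3:**
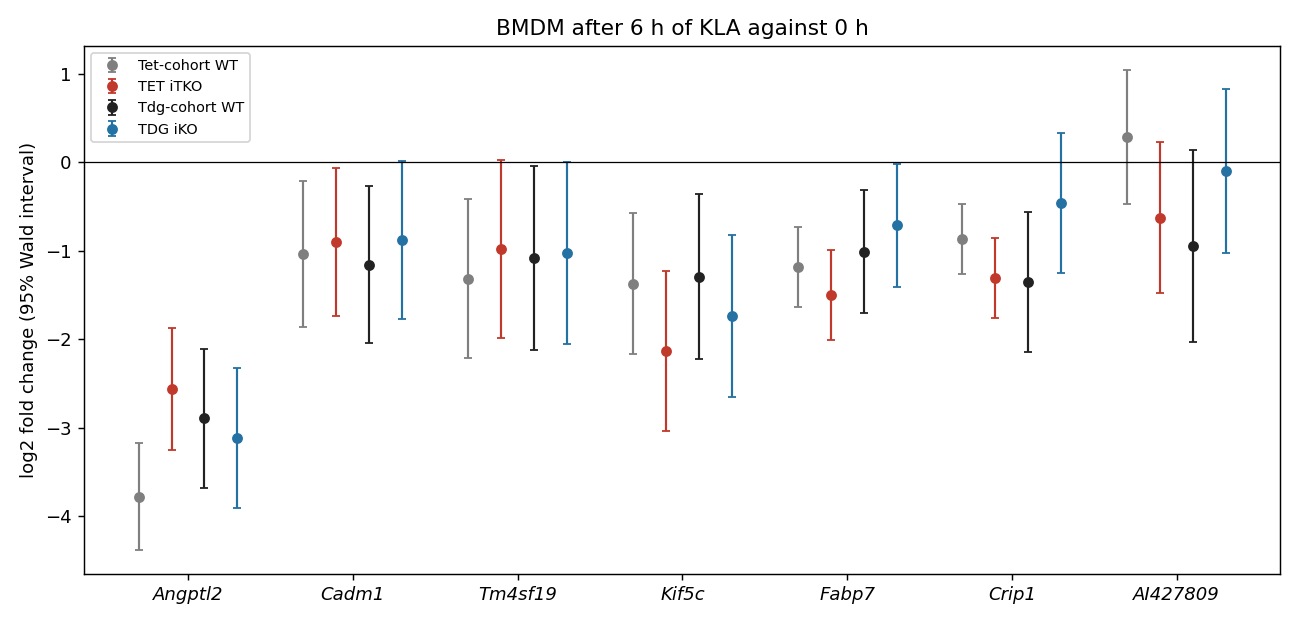
Log2 fold change between 6 h and 0 h of KLA (vertical axis) for 7 genes in the 4 BMDM genotypes. Points are DESeq2 estimates and bars 95% Wald intervals (n = 2 libraries a group). Angptl2 lies lowest, between −2.56 and −3.78, in all 4 genotypes, and the only value above 0 is AI427809 in the Tet-cohort WT.

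Th2 cells gave the members a different order. WT Th2 cells (n = 3) were compared with the Tdg-cohort WT BMDMs at 0 h (n = 2). In Th2 6 of 8 members were called lower, beside 22.5% of the 13202 genes tested (45.8% in either direction). A gene picked for a drop in BMDMs must be expressed there, with no such condition on T cells. A lower level in Th2 was thus favoured by the choice. The share over all genes and the p-values of this comparison do not allow for that. Fabp7 and AI427809 had 0 counts in all 8 Th2 libraries, which put WT Th2 at least 208-fold and at least 16.7-fold lower than BMDMs, taking 3 counts per library as the floor. Tm4sf19 had 1 count over the 4 WT Th2 libraries, and the BMDM to Th2 ratio was 828 with a counting interval of 149 to 32692. Cadm1 had 0, 4, 0 and 1 counts in WT and 4, 1, 0 and 0 in TDG iKO.

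Angptl2 was low in Th2 but present in every library, at 15.6 to 28.96 normalised counts, 45.8-fold lower than in BMDMs (−5.52 ± 0.42, DESeq2 adjusted p = 7.2e-37). Kif5c was likewise at 2.81 to 11.9, 14.2-fold lower (−3.83 ± 0.70, DESeq2 adjusted p = 3.4e-07). Crip1 was the only member with a high level in T cells, at 2107, 1881, 4719 and 4724 in WT and 2911, 1742, 4242 and 4118 in TDG iKO. Its difference from BMDMs did not pass the test (0.63 ± 0.55, interval −0.44 to 1.71, DESeq2 adjusted p = 0.352). Ppp1ca was called higher in Th2, as were 23.3% of all genes (2.63 ± 1.06, DESeq2 adjusted p = 0.0319, edgeR adjusted p = 0.0985), but 1 library carried it: WT Th2 had 225, 29.5, 28.03 and 22.2, and without replicate 1 the value was 0.88 (adjusted p = 0.583). The call was also lost without BMDM replicate 1 (adjusted p = 0.126) or replicate 2 (adjusted p = 0.114).

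For TDG deletion in Th2 cells 0 of the 6 members given a test were called, beside 0.0% of 15826 genes (77 at an unadjusted p under 0.05, and 0 by edgeR). Tm4sf19 had 1 raw count in each genotype (interval −7.75 to 8.05) and Cadm1 5 (interval −4.37 to 4.11). Their counts were too low for the test to show a change, and edgeR tested neither them nor Kif5c. With the replicate number as a block, 15 genes were called and 0 of the members, though it is not shown that the numbers pair these samples. For Angptl2 the log2 fold change was 0.01 ± 0.45 (interval −0.86 to 0.89) and for Crip1 0.02 ± 0.46 (interval −0.89 to 0.93). Ppp1ca stood at −1.54 ± 0.84 (DESeq2 adjusted p = 1.00), at 0.23 without WT replicate 1 and at −0.72 with the replicate block.

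Ordered by level per kilobase of exon in the Tet-cohort WT at 0 h, the mean normalised counts per kb were 1205 for Crip1, 438 for Fabp7, 134 for Cadm1, 97.9 for Tm4sf19, 68.2 for Angptl2, 61.8 for Ppp1ca, 48.3 for AI427809 and 24.96 for Kif5c. In the Tdg-cohort WT at 0 h the order was Crip1 (4149), Fabp7 (456), Cadm1 (173), Angptl2 (166), Tm4sf19 (113), AI427809 (32.6), Kif5c (16.9) and Ppp1ca (10.3). Cadm1 and Angptl2 were neighbours there that did not differ beyond the spread of their replicates. The steps from Crip1 to Fabp7 and from Fabp7 to the rest were present in both cohorts.

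The families of the members were counted in the same contrasts, over 89 listed relatives of which 84 were in the files. In TET iTKO at 0 h, 5 of the 59 tested relatives rose and 9 fell, and at 6 h 3 of 54 rose and 7 fell. Over all genes 7.5% were called at 0 h (3.12% lower) and 6.58% at 6 h (3.34% lower). The lists were chosen with earlier results of these data known. A share above that of all genes is therefore only a description, in every contrast where the lists are counted. In TDG iKO 0 of 69 were called at either time, beside 0.0% of all genes. Among the fatty acid carriers related to Fabp7, 3 of 4 tested fell at 0 h. Fabp4, the adipocyte and macrophage form, fell by 1.18 ± 0.20 (DESeq2 adjusted p = 2.7e-07), a call kept without any 1 library. Fabp5 fell by 1.12 ± 0.35 (adjusted p = 0.024), a call lost without WT replicate 1 (adjusted p = 0.251) or replicate 2 (0.290), and Fabp3 fell by 0.73 ± 0.24 (adjusted p = 0.030), a call lost without WT replicate 2 (0.726) or either TET iTKO replicate (0.0551 and 0.569) and by edgeR (0.0567). At 6 h Fabp4 fell by 1.08 ± 0.20 (adjusted p = 6.4e-06) and Fabp5 by 1.07 ± 0.35 (adjusted p = 0.038). Both 6 h calls were lost without WT replicate 1 (0.122 and 0.242), without WT replicate 2 (0.255 and 0.317) and without TET iTKO replicate 2 (0.357 and 0.447).

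Tm4sf19 was listed with the other L6 tetraspan genes and with genes of osteoclasts and giant cells, which arise by fusion of macrophages. Of 18 tested at 0 h, 2 rose and 4 fell. Tm4sf1, its family member, rose by 2.49 ± 0.39 at 0 h (DESeq2 adjusted p = 1.9e-08) and by 1.99 ± 0.33 at 6 h (2.83 without WT replicate 1), opposite in sign to Tm4sf19. Ctsk, the bone-resorbing protease cathepsin K, fell by 1.29 ± 0.25 at 0 h, and Atp6v0d2, a proton pump subunit, fell by 1.36 ± 0.27 at 0 h. The protease gene Mmp9 rose by 2.28 ± 0.53 at 0 h. The Tm4sf1 calls at both times and the Ctsk call at 0 h were kept without any 1 library. The Atp6v0d2 call was lost without WT replicate 2 (adjusted p = 0.0639), and the Mmp9 call without WT replicate 2 (0.0691) or TET iTKO replicate 2 (0.132). At 6 h 2 of 16 rose and 4 fell, with Ctsk at −1.53 ± 0.26, Atp6v0d2 at −1.35 ± 0.29 and Mmp9 at 1.71 ± 0.53. Those 3 calls were lost without WT replicate 2 (adjusted p = 0.0992, 0.0700 and 0.135), those of Atp6v0d2 and Mmp9 also without TET iTKO replicate 2 (0.0873 and 0.393), and that of Mmp9 also without TET iTKO replicate 1 (0.114).

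Of the other families few members passed. Kif5a, the neuronal kinesin-1 heavy chain, fell by 1.65 ± 0.40 at 0 h (DESeq2 adjusted p = 0.0012), the only call among 5 tested kinesin-1 genes, and by 1.41 ± 0.45 at 6 h (adjusted p = 0.033). The 0 h call was lost without either WT replicate (adjusted p = 0.131 and 0.0594) or TET iTKO replicate 2 (0.140), and the 6 h call without any 1 of the 4 libraries (0.106 to 0.271). Angpt2, an angiopoietin that regulates vessels, fell by 1.58 ± 0.34 at 0 h (adjusted p = 0.00018), a call lost without WT replicate 2 (0.136) or TET iTKO replicate 2 (0.0819). Itga5, an integrin chain named as a receptor of Angptl2, rose by 0.46 ± 0.15 at 0 h (adjusted p = 0.030) and by 0.51 ± 0.15 at 6 h (adjusted p = 0.012). The 0 h call was lost without either WT replicate (0.456 and 0.0925) or TET iTKO replicate 2 (0.749), and the 6 h call without WT replicate 1 (0.169) or TET iTKO replicate 2 (0.606), and edgeR made neither (0.123 and 0.0985). Of the 19 protein phosphatase 1 genes, Ppp1r16b (3.31 ± 1.14, adjusted p = 0.049) and Ppp1r12c (0.46 ± 0.14, adjusted p = 0.023) rose at 0 h and 0 at 6 h. The Ppp1r16b call was lost in each of the 3 refits that tested it (0.0677 to 0.769), and the Ppp1r12c call without either WT replicate (0.439 and 0.0852) or TET iTKO replicate 2 (0.593), and edgeR made neither call (0.0728 and 0.0680). No tested gene of the Cadm and nectin list (4 at 0 h) or of the LIM-only list (2) was called in TET iTKO at either time.

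KLA moved 10 of 58 tested relatives in the Tdg-cohort WT (5 higher, 5 lower), where 8.6% of all genes were called, and 6 of 58 in TDG iKO (4 higher, 2 lower), where 7.08% were. Angpt2 fell beside Angptl2, by 1.91 ± 0.43 in WT and by 2.18 ± 0.42 in TDG iKO, and the WT call was lost without WT 6 h replicate 2 (adjusted p = 0.108). Fabp4 fell by 1.83 ± 0.36 in WT, a call kept without any 1 library. Car2, the carbonic anhydrase of osteoclasts, rose by 5.78 ± 1.09 in WT and by 3.65 ± 0.70 in TDG iKO, and the TDG iKO call was lost without TDG iKO 6 h replicate 2 (2.73, adjusted p = 0.0512). Without WT 0 h replicate 1 the WT value of Car2 was 7.94. The other calls in TDG iKO were Klc4 lower and Mmp14, Ppp1cb and Src higher, and edgeR called none of these 4 (adjusted p of 0.0820 to 0.272). Klc4 lost its call without any 1 of the 4 libraries (adjusted p of 0.109 to 0.344), and the other 3 theirs without TDG iKO 0 h replicate 1 (0.126 to 0.430) or 6 h replicate 2 (0.226 to 1.00), Ppp1cb also without 0 h replicate 2 (0.293). The other calls in WT were Angptl4, Fabp5 and Klc4 lower and Itga5, Ppp1cb, Src and Mmp14 higher, and each of these was lost without at least 1 library, all 7 without WT 6 h replicate 2 (adjusted p of 0.152 to 0.639). Of these 7, all but Klc4 were not called by edgeR (adjusted p of 0.0683 to 0.200).

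The nearest expressed genes on either side of each member were measured in the TET contrast at 0 h, 16 genes in all. Their distances ran from 5.89 kb to 2888 kb (Zfp386, from Crip1), and those flanking Cadm1 lay 1231 kb and 611 kb away. Not all of them are thus close to the member. Of these, 2 fell, where 3.12% of all genes did, and both flank Fabp7. Pkib, an inhibitor of protein kinase A that lies 43.8 kb before Fabp7, fell by 0.93 ± 0.18 at 0 h (DESeq2 adjusted p = 1.1e-05) and by 0.93 ± 0.21 at 6 h (adjusted p = 0.000378), calls kept without any 1 library. Smpdl3a, which lies 5.89 kb after Fabp7, fell by 0.39 ± 0.12 at 0 h (DESeq2 adjusted p = 0.0202, edgeR adjusted p = 0.0838). Its call was lost without either WT replicate (adjusted p = 0.101 and 0.328) or TET iTKO replicate 2 (0.556), and at 6 h it had an adjusted p of 0.0705. Abca1, the transporter gene 102 kb from AI427809, was at 0.23 ± 0.13 (adjusted p = 0.372). Fabp7 lies 4.76 Mb from the floxed Tet1 locus and Angptl2 7.96 Mb from the Cre insertion at Ndor1, and the other members on those chromosomes lie over 24 Mb from an engineered locus. Within 10 Mb of Tet1, 4 of 65 tested genes (6.15%) were called lower at 0 h and 1 higher. Within 10 Mb of Ndor1 7 of 192 (3.65%) were called lower and 11 higher, beside 3.12% lower over all genes. The Tet1 window holds Fabp7, Pkib and Smpdl3a, and the Ndor1 window holds Angptl2. These shares are therefore not independent of the decreases described above, and an effect of the engineered loci was not tested.

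**Figure D4:**
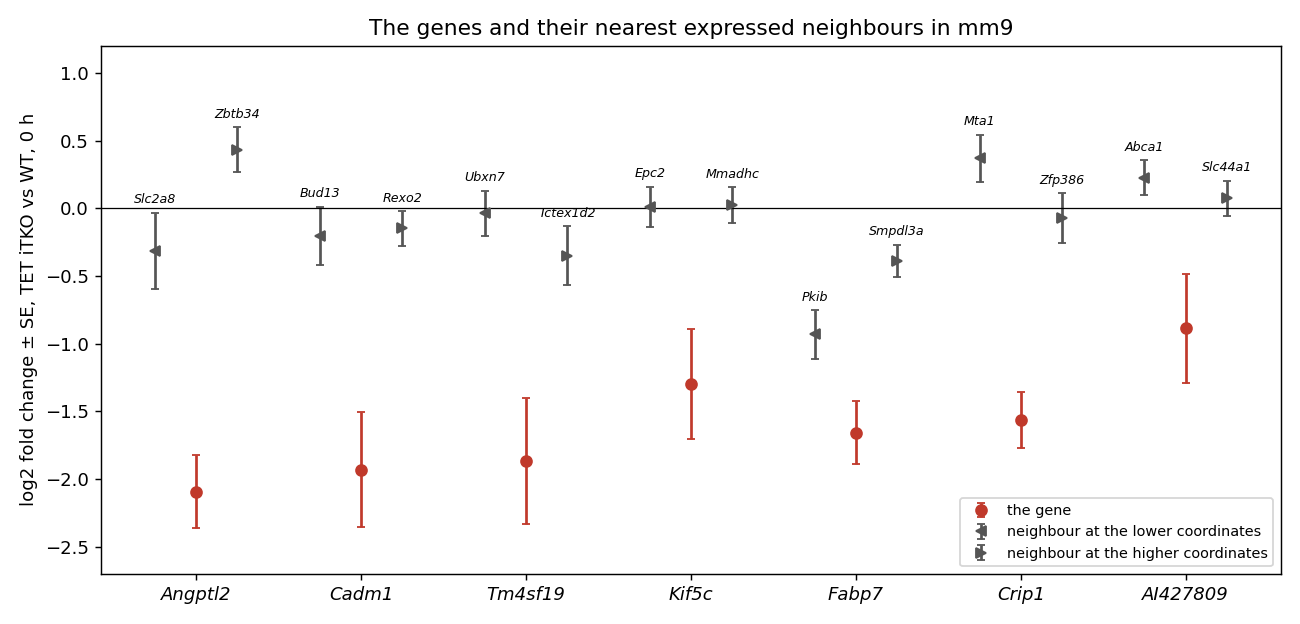
Log2 fold change of TET iTKO against WT BMDMs at 0 h (axis in log2 units) for 7 members and the nearest expressed gene on either side of each, as DESeq2 estimates with SE bars (n = 2 libraries a group). The members lie between −0.89 and −2.10, and the neighbours between −0.93 (Pkib) and 0.43 (Zbtb34). Distances of the neighbours from their member run from 5.89 kb to 2888 kb.

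The gene most like each member was described by Pearson's r among 9529 genes (9530 for Ppp1ca). Log2 levels in the 16 BMDM libraries, centred within each cohort, were the points compared. These points share libraries and a common KLA step. The Tet cohort also holds the TET difference on which the members were picked, so r is a description only. Angptl2 was nearest to Pkib (0.986), Cadm1 to Gusb (0.976), Tm4sf19 to Timp2 (0.967), Kif5c to Hpse (0.947), Fabp7 to Aldh2 (0.971), Crip1 to Mocs2 (0.942) and AI427809 to Clec7a (0.831). Ppp1ca was nearest to Atf1 (0.849), a value that came from the Tet cohort (0.9499) and was not seen in the Tdg cohort (−0.08). Among the members, Cadm1 with Tm4sf19 (0.943) and Fabp7 with Crip1 (0.923) were most alike, and Ppp1ca with AI427809 least (0.246).

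Markers of some other cells, but not of all those listed, differed with the TET genotype. At 0 h the summed normalised counts of 9 neutrophil markers were 469.7 to 887 in WT and 1062 to 2410 in TET iTKO, and those of 6 fibroblast markers were 153 to 194 and 444 to 509. Pdgfra, 1 of these 6, went the other way, detected in WT and at 0 in TET iTKO. For 4 B cell markers the sums were 20.8 to 25.1 and 73.8 to 291, and for 7 dendritic cell markers 5.39 to 5.85 and 23.6 to 64.5, with Cd209a at 0 in both genotypes. The sum of the 11 macrophage markers was 395475 to 410803 in WT and 338535 to 339481 in TET iTKO. In these bulk samples fewer cells of a type and less RNA per cell cannot be told apart, and the part of these markers in the members' values was not tested. In the Tdg cohort neutrophil sums differed between replicates, from 516 to 7746 in TDG iKO at 0 h.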

How the data were processed

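RNA was measured in 16 BMDM and 8 Th2 libraries of mouse. The authors deposited 1 table of raw counts per gene for each library; per the labels and methods, poly(A) RNA was made into NEBNext Ultra II Directional libraries and sequenced in pairs, and reads were aligned to mm9 with HISAT2 and counted with HTSeq, and DESeq2 1.30.0 is named in the submitters' processing notes. The versions of HISAT2 and HTSeq, the annotation and the strand setting are not given in the sources used here. Rows for reads without a gene were left out of library sizes. Reads aligned to more than 1 place went uncounted, which can lower genes with near-identical copies. Of the 50-base windows of the members' transcripts, 0.788% of those of Angptl2 and 2.81% of those of AI427809 were found elsewhere, and none of the others.

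DESeq2 1.42.0 (R 4.3.3; Wald test, Benjamini-Hochberg adjustment over all genes tested, threshold 0.05) was fitted to each BMDM cohort of 8 libraries with 1 term per group, to the Th2 samples, and to WT Th2 against Tdg-cohort WT BMDMs at 0 h. An adjusted p that DESeq2 left as NA stayed NA. The alternatives were edgeR 4.0.16 (quasi-likelihood, TMM), DESeq2 with TMM factors, dropping genes without 10 counts in 2 libraries, the replicate block, fits of only the groups compared, and leaving out each library. The script was tested on simulated counts. Levels per kb used the mm9 exon length of GENCODE vM1.

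Th2 replicates 3 and 4 had a mean chi-square per gene of 1.51 in WT and 1.34 in TDG iKO, against 21.3 to 218 for other Th2 pairs, and were summed. Same-numbered Th2 samples deviated together (r of 0.510, 0.733 and 0.919). Replicates 1 and 2 also lay nearer each other (41.7 in WT and 21.3 in TDG iKO) than either lay to 3 or 4 (105.6 or more). These r therefore do not show that same-numbered samples are pairs. BMDM groups share only 2 numbers.

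The members, the lists of relatives and the markers were chosen with earlier results of these data known. Named besides the members were up to 4 called relatives per list and comparison by size of change, the most similar gene, the 3 largest decreases with the next gene, and the nearest neighbours averaging 50 or more normalised counts.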

Additional observations from a re-analysis of the deposited data

Results flagged for a closer look

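AI427809 stood out because its effects had opposite signs in groups of the same kind, with every library on the stated side. For knockout against WT it was lower in TET iTKO at 0 h (−0.89 on the log2 scale) and 6 h (−1.80), and higher in TDG iKO at 0 h (1.23) and 6 h (2.07). For KLA at 6 h against 0 h it was higher in the Tet-cohort WT (0.29), and lower in TET iTKO (−0.62) and in the Tdg-cohort WT (−0.95). The difference was not tested in any of these pairs, because the gene was picked on the Tet-cohort values. Its counts were 17 to 136 per BMDM library, and 2.81% of its 50-base windows occur elsewhere in mm9.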

How the results depend on the processing

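With 2 libraries a group, counts of called genes moved with the fit, and the cause was not tested. For TDG iKO at 0 h, 4 genes were called with the replicate block against 0 without it, and Tm4sf19 was at 0.027. For KLA in the Tdg-cohort WT edgeR called 413 genes (1 member), the block 1809 (5 members) and the block nested in genotype 1822 (4 members). The added members were Cadm1 and Fabp7 under either block (Cadm1 adjusted p = 2.0e-05 and 9.3e-05, Fabp7 0.0119 in both) and Kif5c under the plain block (0.0397), and Fabp7 was also called with the count filter (0.0408). For KLA in TDG iKO edgeR called 346 genes (1 member), the block 1375 and the nested block 1312, each adding Cadm1 (0.00307 and 0.00765). For TDG in Th2, 15 genes were called with the replicate block, 2 with replicates 3 and 4 kept apart and 46 with replicates 1 and 2 only. For TET the block lost the calls of Atp6v0d2 (adjusted p = 0.0631 at 0 h and 0.0877 at 6 h) and Ppp1r16b (0.0517), and fitting only the groups compared lost Fabp3 (0.149) and Fabp5 (0.0659) at 0 h and Kif5a (0.254) and Mmp9 (0.0796) at 6 h. The labels tie BMDM replicates to each other only by number (r of 0.018 to 0.823 between same-numbered deviations). Xist was at 0 in Tet-cohort WT replicate 1 at both times and at 22210 and 17492 in replicate 2. In that group like samples thus shared a number across KLA times.

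Leaving out single libraries gave 276 to 752 called genes for TET at 0 h, 264 to 703 at 6 h, 0 to 1177 for TDG at 0 h (0 to 1 members), 350 to 2218 for KLA in the Tdg-cohort WT (1 to 2 members), 376 to 700 in TDG iKO (1 to 1), 0 to 245 for the interaction (0 to 1) and 0 to 7 for TDG in Th2. Uncalled values changed sign: at 0 h under TDG Cadm1 ranged from −0.71 to 0.0085 and Tm4sf19 from −0.45 to 0.51; at 6 h Angptl2 from −0.97 to 0.11, Cadm1 from −0.52 to 0.48, Tm4sf19 from −0.48 to 0.35, Kif5c from −0.35 to 0.0051 and Crip1 from −0.24 to 0.016; under KLA Ppp1ca from −0.61 to 0.31 in WT and AI427809 from −0.26 to 0.053 in TDG iKO; in Th2 Ppp1ca from −2.01 (−1.96 without WT replicate 2) to 0.23. A lone library was assumed to vary like the other groups. Members at 0 to 4 counts in a group were limited by depth.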
